A study of Mus musculus with 12 samples.

Results

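The clustered protocadherins are neighbouring genes for cell surface adhesion proteins, and their DNA methylation was described here in neonatal and adult mouse β cells, the insulin-producing cells of the pancreatic islet. Members were all protein-coding genes of the GENCODE annotation on chromosome 18 of the mm39 build whose symbol starts with Pcdha, Pcdhb or Pcdhg. The rule found 59 genes of 21757 annotated protein-coding genes. They were 13 alternate alpha genes, 22 beta genes, 12 alternate genes of the gamma A type, 7 of the gamma B type and 5 C-type genes (Pcdhac1, Pcdhac2, Pcdhgc3, Pcdhgc4 and Pcdhgc5). The alpha cluster lay at chr18:37063237-37320716, the beta cluster at chr18:37397991-37657532 and the gamma cluster at chr18:37794846-37975014, so that the whole region spanned 911.8 kb. One alpha gene, Pcdha4b, starts 93 bp from Pcdha4, and the windows of this pair overlap over most of their length.

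In the alpha and gamma clusters each variable exon carries its own promoter and encodes the extracellular, transmembrane and proximal cytoplasmic part of one protein, which is then spliced to constant exons shared by the cluster. Beta genes are single exons with no constant exons. A neuron transcribes a few alternate isoforms, chosen apart on each parental copy, and the proteins give the cell a surface identity through matching contacts with other cells. CTCF and cohesin bind at most of these promoters and join them to distant enhancers, methylation of a promoter goes with its silence, and the C-type promoters follow their own, more uniform programme. The clusters are best known from the nervous system.

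The data were whole-genome bisulfite sequencing of 12 libraries from sorted β cells of mice that all carried Myt1cCre, Ngn3nCre, Rosa26eYFP and InsApple. Myt1cCre and Ngn3nCre are the separate parts of a split recombinase, which marks with eYFP the descendants of progenitors that had expressed both Myt1 and Ngn3 (M+N+), whereas InsApple marks insulin-expressing cells. β cells without eYFP (M-N+) and with eYFP were taken at postnatal day 2 (P2, 2 libraries of each subtype) and day 60 (P60, 4 libraries of each). The control for lineage is therefore the eYFP- population of the same mice, a cell in which recombination failed counts as eYFP-, and each library combined several sorts of several mice. The sample labels write eGFP for eYFP and give the cell type as all islet cells, although the titles name sorted beta cells.

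Levels are methylated reads as a percentage of all reads on CpGs in 4 pools, one for each subtype and stage. Hypomethylated regions (HMRs), stretches of low methylation called by the authors, were given for each library and each pool, and gene expression was not analysed here. The P2 pools held 24.4 and 24.6 reads per CpG on average (eYFP- and eYFP+) and the P60 pools 44.1 and 43.9, and 67.3 to 70% of reads were methylated. Member windows had a median of 38.6 reads per CpG against 39 over all windows. A level has a 95% Wilson interval for counting error only, and tests between pools compare those pools, not mice. All P2 libraries were one set and all P60 libraries came from others, so stage and library set cannot be told apart. The pooled columns name subtypes by code, and HMRs found in one pool only were more frequent in the libraries of the subtype assigned to it, at 8.19 to 38.3% against 4.39 to 7.9% in libraries of the other. On the X chromosome, HMRs that separated male from female P60 libraries were present at 91.7% in the P2 eYFP- library labelled female and at 13.4% in the one labelled male, against these labels, whereas the P2 eYFP+ libraries followed theirs (13% and 83.8%). The members are autosomal, and results on HMRs in P2 are also given for the eYFP+ libraries alone. The β-cell marker genes were low at their starts (9 of 9 under 20% over the 4 pools). Under 20% were also 3 of 4 islet alpha-cell, 2 of 2 delta-cell, 2 of 3 neuron, 1 of 2 duct and 1 of 3 acinar markers tested. None of the PP, endothelial, blood and Schwann cell markers was. Of all protein-coding windows 66.1% were under 20%, so a low start alone does not identify β cells. The β-cell marker Ins1, an insulin gene, was at 28.3, 35.1, 7.87 and 5.74% in P2 eYFP-, P2 eYFP+, P60 eYFP- and P60 eYFP+. Where 4 levels are given in a row, they are in this order of pools.

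The starts of the alternate protocadherin genes were partly methylated in all pools. Within 500 bp on either side of the start, the mean level over the 4 pools had a median of 27% over the alpha alternates (18.8 to 47.4%), 37.5% over the beta genes (10.6 to 51.8%), 24.9% over gamma A (13.5 to 57.5%) and 34.3% over gamma B (16.5 to 42.1%). Over all protein-coding windows tested (20339) the median was 4.68%. Of the 54 alternate members, 49 (90.7%) were at 20 to 60%, whereas 11.8% of all windows were in that range, 66.1% were under 20% and 22.2% were over 60%. The C-type genes had a median of 1.07%, with a range of 0.575 to 67.2%.

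**Figure D1:**
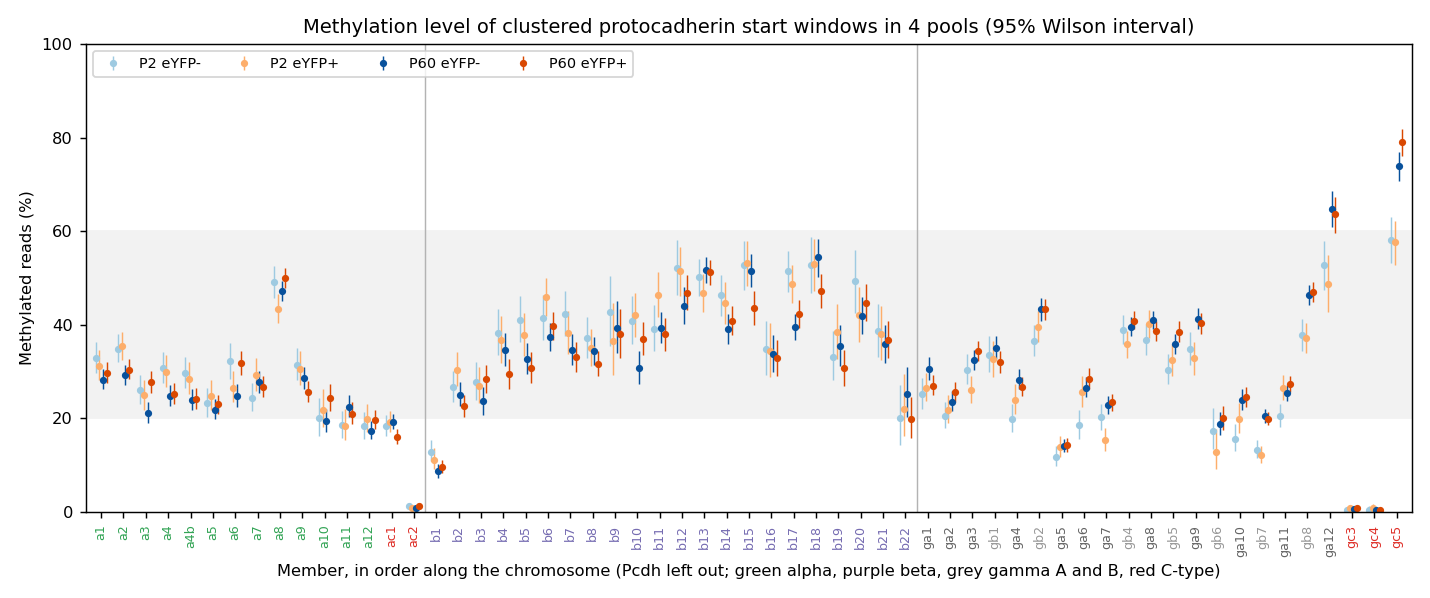
Methylation level (%, methylated reads of all reads on CpGs) of the 500 bp on either side of each member's start, in genomic order, in the 4 pools, with 95% Wilson intervals as bars. Most alternate members sit in the grey band from 20 to 60%, whereas Pcdhac2, Pcdhgc3 and Pcdhgc4 sit near 1% and Pcdhgc5 is highest.

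Levels were lower where a window held more CpGs (Pearson r = -0.52, Spearman rho = -0.49 over 53 alternates, which share pools and neighbouring positions). Within the clusters this relation was r = 0.30 and rho = 0.33 in alpha, r = -0.26 and rho = -0.03 in beta and r = -0.54 and rho = -0.30 in gamma. Windows of like CpG number were therefore set side by side. Among windows with 20 to under 40 CpGs, 29 of 34 alternate members were at 20 to 60%, against 17.9% of 3051 other genes, and the median was 27% over the 35 members against 13.4% over the others. Among windows with 10 to under 20 CpGs, 17 of 17 alternates were in that range against 29.1% of 2763 other genes, and the members' median of 39.2% lay below the others' 67.3%. The intermediate values were also seen at single CpGs. Of 1263 CpGs in the alternate windows with at least 10 reads in all pools, 44.9% in P2 eYFP-, 46.5% in P2 eYFP+, 51.5% in P60 eYFP- and 53% in P60 eYFP+ were at 20 to 60%, against 4.71 to 4.94% of 873030 CpGs in all windows. Pooled values do not separate cells or parental copies, so a mixture of unmethylated and methylated copies and partial methylation of each cannot be told apart.

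Methylation was lowest close to the start and higher in the flanks. With the reads of all members of a class summed in 100 bp bins, the beta genes were lowest at 50 bp before the start, at 14% in P2 eYFP-, 14.7% in P2 eYFP+, 12.2% in P60 eYFP- and 10.5% in P60 eYFP+. The gamma alternates were lowest in the same bin, at 14.5, 14.8, 17.8 and 18.9%. The alpha alternates were lowest at 450 bp into the first exon, at 21, 19.4, 19.5 and 21.7%, and were at 27, 31.4, 25.1 and 26.1% at 50 bp before the start, so that the low stretch of the alpha genes ran from upstream of the start into the first exon. The upstream flanks were at a median over bins of 52.4 to 77.5%. The first exons are long (median 2490 bp in alpha, 3714 bp in beta and 2609.5 bp in gamma), and their medians were 48.5% in the alpha alternates, 57.9% in beta, 57.4% in gamma A, 52.5% in gamma B and 38.9% in the C-type genes, against 0.862% over the 17359 first exons tested. Level at the start and over the first exon were loosely related (r = 0.46, rho = 0.44 over 53 alternates).

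**Figure D2:**
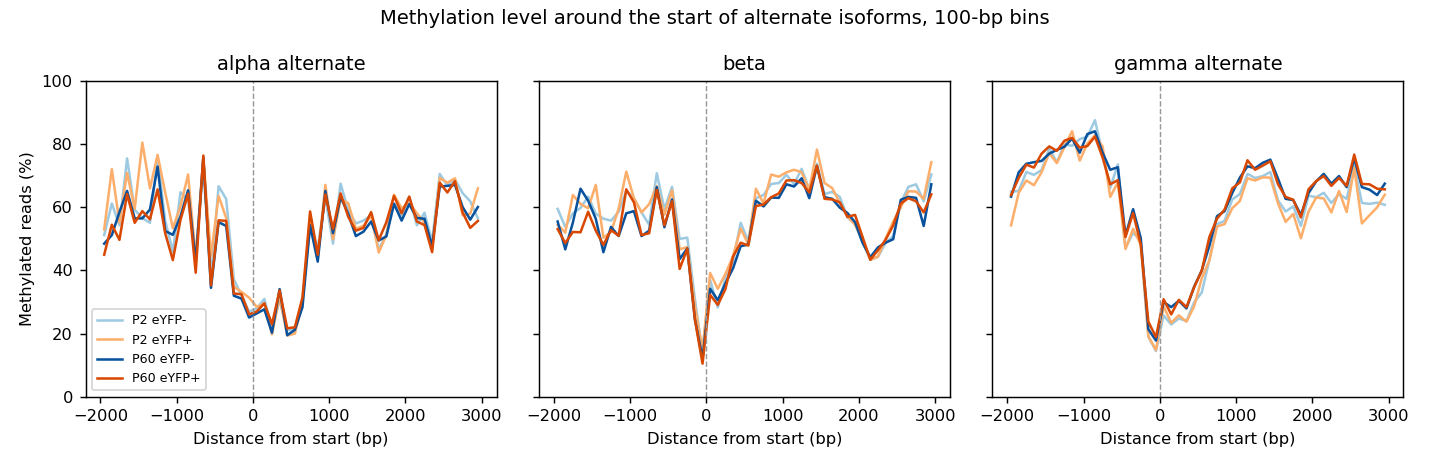
Methylation level (%, methylated reads of all reads, summed over the alternate members of each cluster) in 100 bp bins by distance from the start (bp), from the upstream flank into the first exon, with one line for each pool. The beta and gamma lines reach their minimum just before the start and the alpha lines, which are low from before the start, inside the first exon.

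The alpha cluster, whose proteins are expressed mainly by neurons, had HMRs at nearly all its starts. Pcdha12 was lowest, at 18.3% in P2 eYFP-, 19.9% in P2 eYFP+, 17.4% in P60 eYFP- and 19.6% in P60 eYFP+, followed by Pcdha11 at 18.5, 18.4, 22.5 and 21%. Pcdha8 was highest, at 49.2, 43.3, 47.2 and 50%, and Pcdha2 followed at 34.9, 35.4, 29.2 and 30.4%. The intervals of Pcdha8 and Pcdha12 were far apart in every pool, and neither gene differed by stage or subtype at 10 percentage points in this window. An HMR overlapped the window of 13 of 13 alpha alternates in each of the 4 P2 libraries and of 11 to 13 in the P60 libraries. The HMR of Pcdha8 was present in all 12 libraries but covered only 52 to 132 bp of its window. The array of alpha exons as a whole was at 52.4, 52.9, 51.6 and 52.3%.

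The beta genes had the highest median level and the lowest share of starts with an HMR. Pcdhb1, at the start of the cluster, was lowest at 12.9, 11.2, 8.66 and 9.63% in P2 eYFP-, P2 eYFP+, P60 eYFP- and P60 eYFP+, and Pcdhb22, at the other end, was next at 20, 22.1, 25.2 and 19.8%. The Pcdhb22 window held only 6 CpGs and lay mostly inside the annotated first exon of Pcdhb21. The highest were Pcdhb18 at 52.8, 52.9, 54.4 and 47.2% and Pcdhb15 at 52.7, 53.2, 51.6 and 43.5%. Between 7 and 9 of the 22 beta windows held an HMR in a P2 library and 4 to 10 in a P60 library. Pcdhb9, Pcdhb12, Pcdhb15, Pcdhb18 and Pcdhb20 had none in any library.

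In the gamma cluster, whose proteins support the survival of interneurons and the self-avoidance of dendrites, Pcdhga5 was lowest of the A type at 11.8, 13.8, 14.1 and 14.4% and Pcdhga7 next at 20.2, 15.3, 22.9 and 23.4%. Pcdhga12 was highest at 52.7, 48.8, 64.8 and 63.6%, and Pcdhga8 followed at 36.7, 40.1, 41 and 38.7%. Of the B type, Pcdhgb7 was lowest at 13.3, 12.2, 20.5 and 19.9% and Pcdhgb6 next at 17.4, 12.9, 18.7 and 20%. The highest of the B type were Pcdhgb8 at 37.8, 37.1, 46.4 and 47% and Pcdhgb2 at 36.5, 39.6, 43.3 and 43.3%. Pcdhga12 lay above every other alternate gene in both P60 pools, whereas at P2 it lay at the level of the highest beta genes.

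The C-type genes fell into separate ranges. Pcdhgc4, the isoform that neurons need for survival, was at 0.491, 0.907, 0.411 and 0.491%, Pcdhgc3 at 0.522, 0.814, 0.702 and 0.778%, and Pcdhac2 at 1.29, 0.826, 0.903 and 1.28%, all with 29 or more CpGs in the window (29, 68 and 55). Pcdhac1 was at 18.4, 19.3, 19.2 and 16.1% with 44 CpGs, in the range of the lowest alpha alternates. Pcdhgc5, with 15 CpGs, was at 58.2, 57.6, 74 and 79.1%, above every other member in each pool. An HMR overlapped the windows of Pcdhac1, Pcdhac2, Pcdhgc3 and Pcdhgc4 in all 12 libraries and that of Pcdhgc5 in none.

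The constant exons with 3 or more CpGs were partly or mostly methylated, except at one place in the gamma cluster. The third constant exon of gamma was at 45.8, 39.4, 51.9 and 56.5%, with P60 minus P2 differences of 6.1 points in eYFP- and 17.1 points in eYFP+, 11 points apart. Constant exons were outside the regions tested across the genome, so no p-value is given. The alpha ones were at 66.2, 83.6, 78.5 and 78.6% (exon 1, with 3 CpGs) and 70.5, 69.6, 63.1 and 67.5% (exon 3). The first constant exon of gamma, with 5 CpGs, was at 3.42, 0, 2.22 and 1.23%, and it lay inside an HMR of 2127 bp at 7.06, 7.83, 14.7 and 11.7%.

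With stage, the median differences of the gamma starts and the beta starts had opposite signs, and most were under 10 points. The P60 minus P2 difference had a median of 5.35 points in eYFP- and 4.71 in eYFP+ over the 19 gamma alternates, -3.54 and -4.82 over the 22 beta genes, and -2.96 and -1.6 over the 13 alpha alternates, against -0.0515 and -0.23 over all windows. Most of all windows (66.1%) were under 20% and had little room to fall. Over all CpGs of the genome the 4 pools were at 69.2, 70, 67.5 and 67.3%, also lower at P60 in both subtypes. The part of this genome-wide difference in the beta and alpha values was not tested. The gamma level was higher at P60 in both subtypes at 17 of 19 starts (27.2% of all windows) and 18 of 19 first exons (25.2%). The beta level was lower in both at 14 of 22 starts (41.9%) and 15 of 22 first exons (35.5%), closer to the share of all genes. At an adjusted p under 0.05 with no limit on size (Fisher exact test on pooled reads, two-sided, Benjamini-Hochberg over all windows), 10 gamma alternates were higher at P60 in eYFP- and 8 in eYFP+ and none was lower, whereas 4 and 3 beta genes were lower and none was higher. Of all windows 10.9% and 10.5% were higher and 6.64% and 11.8% lower by this rule. Among the alpha alternates 0 and 1 were higher and 4 and 1 were lower.

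**Figure D3:**
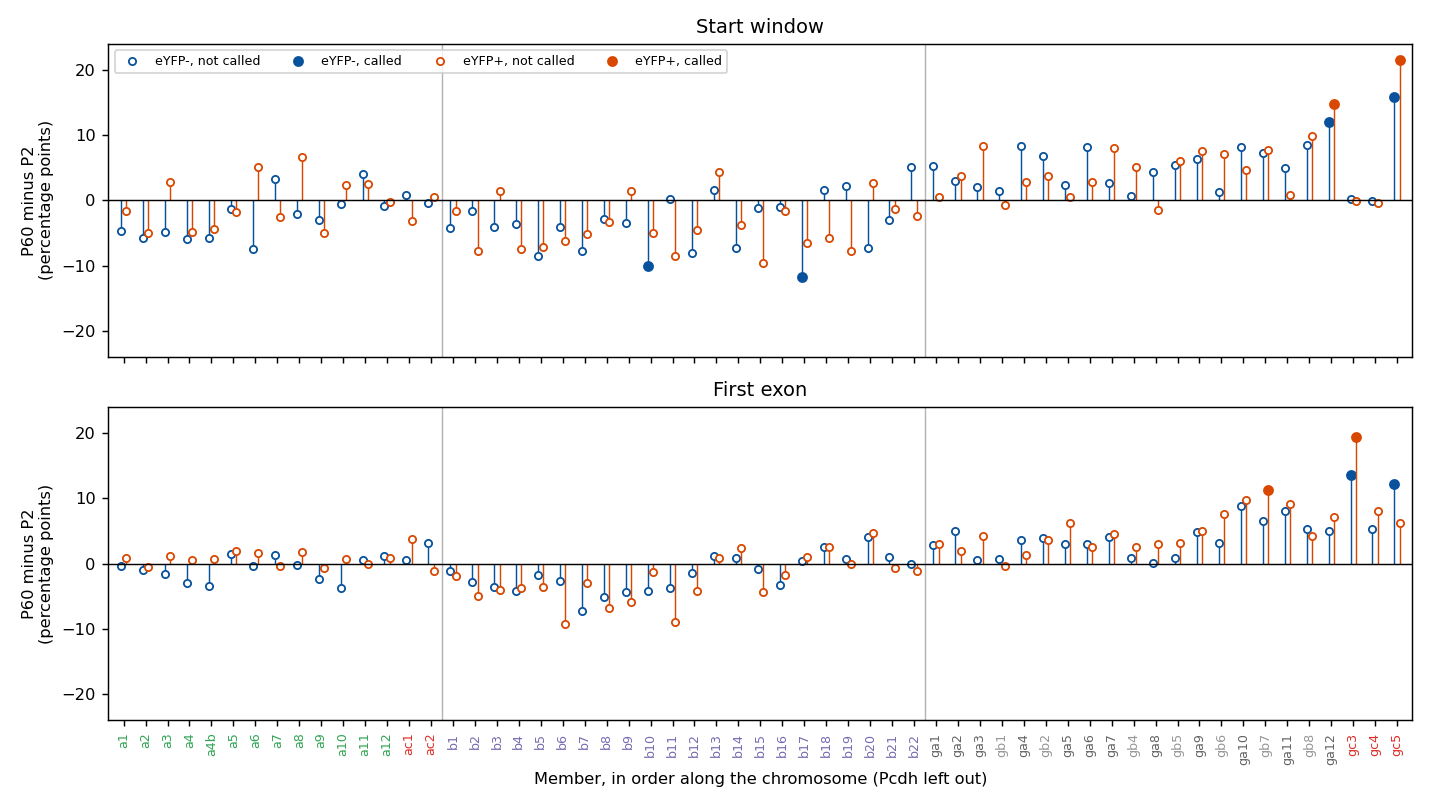
P60 minus P2 difference in methylation level (percentage points) for the start window and the first exon of each member, in genomic order, for eYFP- and eYFP+; filled points passed the call rule of an adjusted p under 0.05 and at least 10 points. Most gamma points lie above 0, most beta points below, and Pcdhgc5 and Pcdhga12 stand out among the windows and Pcdhgc3 among the first exons.

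A difference was called where the adjusted p was under 0.05 and the size at least 10 percentage points. By this rule, 2 members were higher at P60 in eYFP- (3.75% of all windows) and 2 were lower (1.96%), and in eYFP+ 2 were higher (3.61%) and 0 were lower (3.43%). At an unadjusted p under 0.05, 27 of 59 members differed in each subtype, against 28.6% of all windows in eYFP- and 33.5% in eYFP+. These shares of called members are near the background, and the members that passed are named next.

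Pcdhgc5 rose the most. It was at 58.2% (Wilson 53.1 to 63.1%) in P2 eYFP- and 74% (70.8 to 77%) in P60 eYFP-, a difference of 15.8 points with an adjusted p of 3.61e-06, and at 57.6% (52.8 to 62.2%) and 79.1% (76.1 to 81.9%) in eYFP+, a difference of 21.6 points with an adjusted p of 8.28e-13 (Fisher exact test on reads). Pcdhga12, an alternate isoform near the end of the gamma A genes, rose by 12.1 points in eYFP- (adjusted p = 0.00311) and 14.8 points in eYFP+ (adjusted p = 9.35e-04) by the same exact test. Its intervals were 47.5 to 57.8% and 42.7 to 54.9% at P2 and 60.9 to 68.5% and 59.7 to 67.4% at P60, so that the stages did not overlap in either subtype. With the window widened to 1000 bp on either side, the Pcdhga12 differences were 2.88 and 3.99 points and were not called. Within 250 bp the window held 1 CpG and was not tested.

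Of the beta genes, Pcdhb17 fell by 11.8 points in eYFP-, from 51.4% (47 to 55.7%) to 39.6% (36.8 to 42.4%), with an adjusted p of 1.60e-04 (Fisher exact test). In eYFP+ it was at 48.7% and 42.2%, a difference of -6.48 points with an adjusted exact p of 0.0511. Pcdhb10 fell by 10.1 points in eYFP-, from 40.9% (35.9 to 46.1%) to 30.8% (27.4 to 34.3%), with an adjusted exact p of 0.0104. In eYFP+ it was at 42% and 36.9%, a difference of -5.03 points with an adjusted exact p of 0.227. Both beta genes were thus called in eYFP- only, and a difference between the subtypes in these changes was not called for either. Pcdhb15 was at 53.2% in P2 eYFP+ and 43.5% in P60 eYFP+, just under the size limit at -9.65 points (adjusted exact p = 0.0143), and Pcdhb5 had differences of -8.48 points in eYFP- and -7.13 points in eYFP+ (adjusted exact p = 0.0369 and 0.0597). Pcdhb7 was at 42.4, 38.2, 34.7 and 33.1% and Pcdhb12 at 52.2, 51.4, 44.1 and 46.8% in P2 eYFP-, P2 eYFP+, P60 eYFP- and P60 eYFP+, and neither passed the test in either subtype.

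Several gamma starts differed by less than 10 points with small adjusted p-values, and their values follow. Pcdhgb7 was higher at P60 by 7.22 points in eYFP- (adjusted exact p = 6.06e-07) and by 7.71 points in eYFP+ (2.96e-08). Pcdhgb8 was higher by 8.57 points (5.61e-04) and 9.89 points (1.67e-05), and Pcdhga9 by 6.31 points (0.0276) and 7.51 points (0.00615) by the same exact test. Pcdhga7 was higher by 8.1 points in eYFP+ (adjusted exact p = 3.28e-05), and Pcdhga6 by 8.15 points in eYFP- (0.00106), where it was at 18.5% and 26.6%. None of these was past the size limit. Pcdhgb7 and Pcdhga7 were among the lowest gamma starts at P60.

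The few first exons called between the stages were those of Pcdhgc3, Pcdhgc5 and Pcdhgb7, all in the gamma cluster. By the same rule 2 of 59 first exons were higher at P60 in eYFP- (3.27% of all first exons) and 0 were lower (0.91%). In eYFP+ 2 of 59 were higher (2.93%) and 0 were lower (1.42%). These shares of called members are near the background. Pcdhgc3 was higher in both subtypes, at 22.6% and 36.3% in eYFP- (13.6 points, adjusted exact p = 2.28e-49) and 17.2% and 36.5% in eYFP+ (19.4 points, 3.42e-105). The difference was 5.76 points larger in eYFP+ (adjusted p = 5.77e-05, Wald test on the binomial log odds), below the size limit for a call. Its start window stayed below 1% in every pool, so the values that differed lay downstream of the start. Pcdhgc5 was called in eYFP- only, at 59.2% and 71.4% (12.2 points, adjusted exact p = 1.19e-16). In eYFP+ it was also higher at P60, at 64.9% and 71.1%. This difference of 6.23 points (adjusted exact p = 1.86e-04) was below the size limit. The difference between these stage differences was -5.97 points and was not called (adjusted p = 0.199, binomial log odds). Pcdhgb7 was called in eYFP+ only, at 37.4% and 48.7% (11.3 points, adjusted exact p = 1.79e-25). In eYFP- it was also higher at P60, at 41.7% and 48.3%. This difference of 6.58 points (adjusted exact p = 7.80e-09) was below the size limit. The subtypes differed by 4.74 points in the stage difference of Pcdhgb7, which was not called (adjusted p = 0.0816, binomial log odds). The other C-type first exons stayed within 10 points, with Pcdhgc4 at 36.7, 34.3, 42.1 and 42.3%, Pcdhac1 at 43.2, 40, 43.7 and 43.8% and Pcdhac2 at 19.1, 22.9, 22.4 and 21.7%. The stage difference of Pcdhac2 was 3.21 points in eYFP- and -1.18 points in eYFP+, which differed by -4.4 points (adjusted p = 0.0245, binomial log odds). The stage difference over first exons had a median of 3.58 points in eYFP- and 4.23 in eYFP+ over the gamma alternates and of -1.65 and -2.41 over the beta genes. Among the beta genes Pcdhb6 had the lowest difference in eYFP+, from 70.9% to 61.6% (-9.3 points, adjusted exact p = 1.16e-07).

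Position along the region went with the stage difference. Over 53 alternates the difference, averaged over subtypes, increased with the order of the genes along the chromosome (r = 0.53, rho = 0.65 at starts and r = 0.51, rho = 0.68 over first exons). Within the clusters the relation at starts was r = 0.62 and rho = 0.65 in alpha, r = 0.25 and rho = 0.31 in beta, and r = 0.57 and rho = 0.55 in gamma. The relation over first exons was r = 0.62 and rho = 0.65 in beta (22 genes), r = 0.64 and rho = 0.64 in gamma (19 genes), and r = 0.02 and rho = 0.08 in alpha (12 genes). The stage differences of the start windows in eYFP- and in eYFP+, which come from separate pools, went together over all alternates (r = 0.58, rho = 0.55). Within beta the relation was r = 0.05 and rho = -0.04, within alpha r = 0.09 and rho = 0.08, and within gamma r = 0.40 and rho = 0.24, so that the relation over all alternates lay mostly between the clusters. Longer stretches gave differences of the same signs. The beta array as a whole was at 58, 58.5, 55.6 and 55.6%, the gamma array at 54, 52.9, 57.5 and 57.4%, and the stretch from the last gamma alternate to Pcdhgc3 at 74.2, 75.8, 79.7 and 80.3%, whereas the stretch from the alpha array to Pcdhac1 was at 68.5, 69.7, 67.3 and 67%. These correlations describe neighbouring genes in the same 4 pools, which are not independent replicates. The ranking of members was largely the same in each pool (P2 against P60 r = 0.90, rho = 0.92, and eYFP- against eYFP+ at P60 r = 0.96, rho = 0.95 over 53 alternates).

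Between eYFP- and eYFP+ β cells no member window was called at P2 (0 of 59, 0.206% of all windows) or at P60 (0 of 59, 0.0934%). At an unadjusted p under 0.05 there were 7 and 11 members of 59, against 11.4% and 12.5% of all windows. At an adjusted p under 0.05 with no limit on size there were 0 and 2, where 0.934% of all windows were higher and 0.339% lower in eYFP+ at P2, and 0.89% higher and 0.747% lower at P60. The pair at P60 were alpha genes. Pcdha6 was at 24.8% (22.4 to 27.4%) in eYFP- and 31.8% (29.3 to 34.3%) in eYFP+, a difference of 6.99 points (adjusted exact p = 0.0165). Pcdha3 was at 21.1% and 27.7%, a difference of 6.56 points (adjusted exact p = 0.0113). At P2 Pcdha6 was at 32.2% (28.5 to 36.1%) and 26.6% (23.4 to 30.1%), a difference of -5.53 points in the opposite direction (adjusted exact p = 0.397). The stage difference of Pcdha6 was -7.38 points in eYFP- and 5.14 points in eYFP+, and the difference of 12.5 points between these was called (adjusted p = 0.0114, Wald test on the binomial log odds of pooled reads), as the 1 member of 59 against 0.369% of all windows. Some of these windows resemble other places in the region. Stretches of 50 bases that occur elsewhere in the region after C-to-T conversion made up a median of 20.7% of the alpha windows, against 1.47% in gamma A, 13.7% in gamma B and 0 in the beta and C-type genes. Without the CpGs in such stretches, which left 15 of the 37 CpGs of Pcdha6, the stage differences were -5.25 and 1.24 points and differed by 6.49 points, which was not called (adjusted p = 0.543, binomial log odds). Within 250 bp of the start they differed by 7.46 points and were not called either (adjusted p = 0.56, binomial log odds). In that narrower window Pcdha8 was called in place of Pcdha6, with stage differences of -7.54 points in eYFP- and 10.7 points in eYFP+ (adjusted p = 7.51e-04, binomial log odds).

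First exons gave 0 calls between the subtypes at P2 (0.271% of all first exons) and at P60 (0.138%), with 13 and 12 members of 59 at an unadjusted p under 0.05, against 8.65% and 9.33% of all first exons. The largest of those with an adjusted p under 0.05 was Pcdhgc3 at P2, at 22.6% in eYFP- and 17.2% in eYFP+ (-5.47 points, adjusted exact p = 4.63e-06). Pcdhgb7 was also lower in eYFP+ at P2, by -4.34 points (adjusted exact p = 0.0306), and Pcdhac2 higher by 3.71 points (0.0202). At P60 Pcdha3 was higher in eYFP+ by 3.53 points (adjusted exact p = 0.0269), the direction of its start.

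HMRs gave a view of each library. The number of member windows that overlapped an HMR was 40 and 41 in the P2 eYFP- libraries and 44 and 41 in the P2 eYFP+ libraries (mean 41.5 ± 1.73, SD, n = 4). It was 33, 39, 30 and 30 in the P60 eYFP- libraries and 39, 35, 33 and 35 in the P60 eYFP+ libraries (34.2 ± 3.49, SD, n = 8). Every P2 library was above every P60 library, with 40 the lowest at P2 and 39 the highest at P60. The P2 eYFP+ libraries alone, whose sex labels matched the X chromosome, lay above all P60 libraries as well. Libraries at P2 also held more HMRs genome-wide (57109 to 60950 against 38052 to 49939), and windows of all genes with an HMR were 14482 to 14552 at P2 and 14120 to 14301 at P60, so the members made up 0.276 to 0.302% of them at P2 and 0.211 to 0.276% at P60. The part of HMR number in the member counts was not tested. Between subtypes the means were 40.5 and 42.5 at P2 and 33 and 35.5 at P60 (eYFP- and eYFP+), and the libraries overlapped at both stages.

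**Figure D4:**
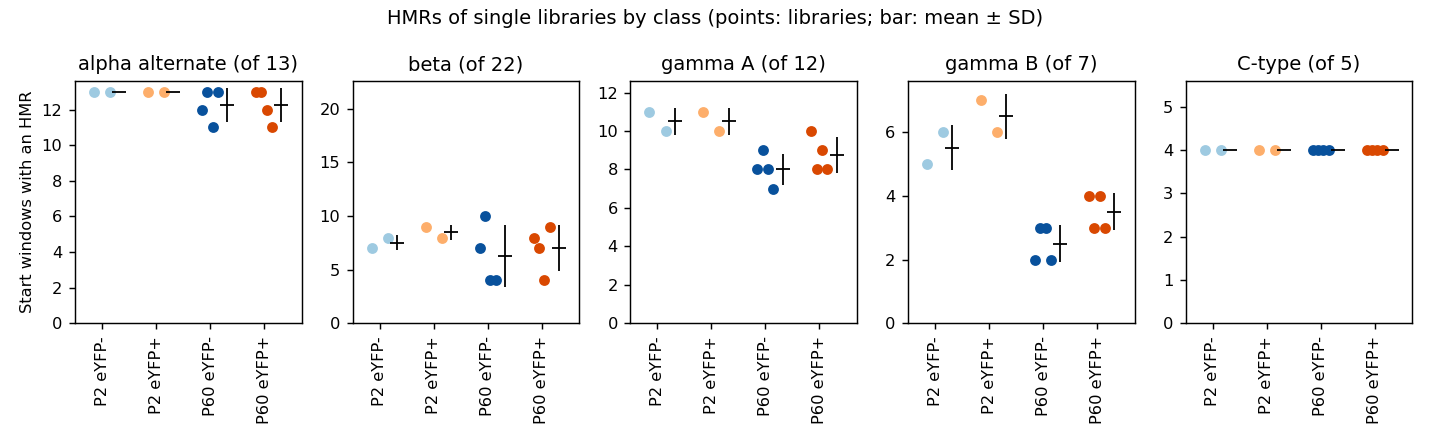
Number of member start windows that overlap an HMR in each of the 12 libraries (points), by gene class, stage and subtype, with the mean and SD. The alpha alternates are near their full number of 13 throughout, whereas both gamma types have fewer at P60.

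The classes differed in how much of the windows was covered. Over the gamma alternates HMRs covered 49 ± 1.44% of the window at P2 (SD, n = 4) and 27.3 ± 2.6% at P60 (SD, n = 8), with no overlap between the stages. The P2 eYFP+ libraries alone were at 51.0 and 47.7%, against 24.4 to 31.3% at P60. Over the alpha alternates the values were 52 ± 7.02% and 44.1 ± 5.33%, over the beta genes 18.9 ± 1.08% and 13 ± 3.48%, and over the C-type genes 71.5 ± 1.39% and 71.1 ± 1.9%. The stages overlapped in alpha and in the C-type genes and did not in beta. These values were not set against the cover of all protein-coding windows. P2 libraries held more HMRs genome-wide, and the part of this in the differences of cover was not tested. HMRs overlapped 10 to 11 gamma A windows in P2 and 7 to 10 in P60 libraries, 5 to 7 and 2 to 4 gamma B windows, and 4 C-type windows in every library. The share of windows with an HMR was higher in alpha alternates than in beta genes in 12 of 12 libraries (96.2% against 32.2% on average, a difference of 64 ± 9.53 points, SD over libraries). Where an HMR had to cover at least 50% of the window, the shares were 49.4% and 10.2%, 39.1 points apart. The gamma alternates lay between them at 68.9%, below alpha by 27.3 ± 13.5 points. This gap was 13.2 points over the P2 libraries and 34.4 points over the P60 libraries, and it was 15.1 points, with gamma higher in 2 of 12 libraries, for HMRs that cover at least 50% of the window. C-type genes exceeded all alternates by 19.5 ± 8.55 points (80% against 60.5%), by 10.6 points over the P2 and 24 points over the P60 libraries. The gap was 48.6 points for HMRs that cover at least 50% of the window and 33.7 points over first exons. The classes also differed in CpG number, with a median of 36 CpGs per window in alpha alternates and 15 in beta genes. It was 30.5 in gamma A, 37 in gamma B and 44 in C-type genes. HMR shares were not compared at like CpG number, so the part of CpG number in these gaps was not tested.

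**Figure D5:**
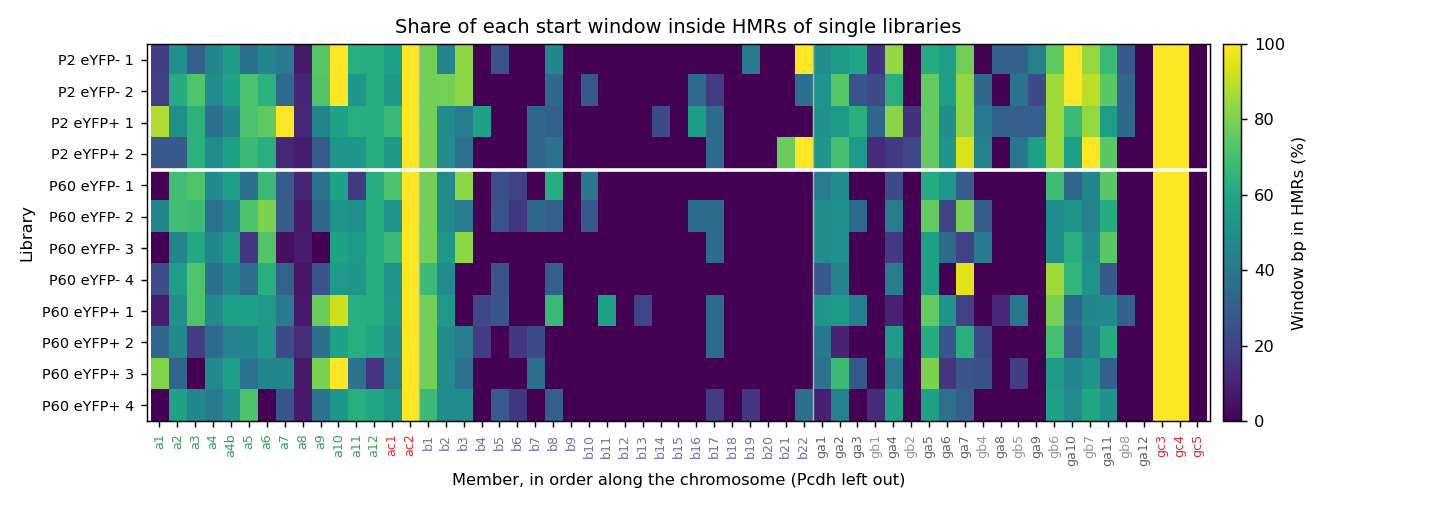
Share of each member's start window covered by HMRs (colour, %) in the 12 libraries (rows, with a white line between P2 and P60) for the 59 members in genomic order (columns). The alpha columns hold some cover in nearly all libraries, with little at Pcdha8. Most beta windows are empty in any one library, 5 beta columns are empty throughout, and gamma columns as a class lose cover at P60.

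Of the 59 windows, 24 held an HMR in all 12 libraries (63.8% of all windows did) and 7 in none (31.6% of all windows), the 5 beta genes named above, Pcdhga12 and Pcdhgc5. An HMR in all 4 P2 libraries but not in all 8 P60 libraries was found at 11 member windows, against 1.86% of all windows. The reverse was found at 0, against 0.11%. A window with an HMR in all 12 libraries or in none cannot show either pattern. These were 63.8% and 31.6% of all windows, so both background shares are small and say little about the 11. An HMR in all of 4 libraries is also easier to meet than in all of 8, which favours the first pattern. Among the 11, Pcdhga9 had an HMR in 4 of 4 P2 and 0 of 8 P60 libraries, a pattern that 95 genes (0.437%) showed. Pcdhgb1 had one in 1 of 8 P60 libraries, Pcdhgb5 in 2, Pcdhga3 in 3, Pcdha1 and Pcdhb8 in 5, Pcdhb3 in 6, and Pcdha3, Pcdha6, Pcdha9 and Pcdhga6 in 7. The pooled levels of Pcdhga9 were 34.9, 32.8, 41.2 and 40.3%, those of Pcdhgb1 were 33.6, 32.6, 35.1 and 32%, and those of Pcdhgb5 were 30.4, 32.4, 35.8 and 38.5%, with differences in level from -0.644 points (Pcdhgb1 in eYFP+) to 7.51 points (Pcdhga9 in eYFP+). Pcdhga3 was at 30.4, 26.1, 32.5 and 34.3%, Pcdha1 at 32.9, 31.3, 28.3 and 29.8%, Pcdha9 at 31.5, 30.6, 28.6 and 25.6%, Pcdhb3 at 27.8, 26.9, 23.7 and 28.4%, and Pcdhb8 at 37.2, 35, 34.4 and 31.7%. In eYFP- Pcdha1, Pcdha9, Pcdhb3 and Pcdhb8 were lower at P60, although their HMRs were absent from some P60 eYFP- libraries. An HMR was present in 2 of 4 of these libraries at Pcdha1 and in 3 of 4 at each of the others. Pcdha3 and Pcdha6 held an HMR in 4 of 4 P60 eYFP- and 3 of 4 P60 eYFP+ libraries. Their stage differences were -4.92 and -7.38 points in eYFP- and 2.78 and 5.14 points in eYFP+. Pcdhgb2 had an HMR in both P2 eYFP+ libraries and in none of the 10 others, with a level of 36.5% in P2 eYFP- and 39.6% in P2 eYFP+. Over the first exon, Pcdhgc5 had an HMR in 4 of 4 P2 and 5 of 8 P60 libraries, Pcdhb17 in 4 and 6, and Pcdhb21 in 4 and 4.

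HMRs of the 4 pools were merged to give 82 in the region, 54 at starts, 19 elsewhere in first exons and 9 at other places, of which 80 could be tested. With stage, 6 were higher at P60 in eYFP- (28.1% of all merged HMRs were higher) and 0 lower (2.95%), and 14 were higher in eYFP+ (26.7%) and 0 lower (3.91%), with 33 and 42 of 80 at an unadjusted p under 0.05 (55.2% of all in each subtype). The member shares lie below the background, and each HMR was chosen as low in at least 1 pool, which favours a difference to the others. The largest differences lay away from the alternate starts. An intronic HMR of 697 bp in the alpha cluster was at 9.8, 11.2, 36 and 33.7%, with differences of 26.2 points in eYFP- (adjusted exact p = 1.05e-24) and 22.5 points in eYFP+ (1.28e-18). An HMR of 418 bp in the first exon of Pcdhgc3 was at 18.4, 9.67, 42 and 41%, with differences of 23.6 points (adjusted exact p = 7.21e-17) and 31.3 points (2.79e-27). Another, of 1519 bp at the 3′ end of the gamma cluster, was at 12.5, 11.7, 31 and 30.7%, with differences of 18.5 points (adjusted exact p = 1.13e-38) and 19 points (2.29e-39), and one of 170 bp upstream of Pcdhgc3 was at 5.44, 7.32, 26.9 and 29.4%. Other HMRs were low in all pools, with one of 2493 bp between the alpha and beta clusters at 4.47, 4.83, 4.47 and 4.77%. The start of Taf7, a general transcription factor gene between the beta and gamma clusters, was at 4.39, 6.46, 4.13 and 4.05%, with a difference of -2.41 points in eYFP+ (adjusted exact p = 3.38e-04). Between subtypes 0 of the 80 were called at P2 (1.33% of all) and 1 at P60 (0.712%), with 14 and 9 of 80 at an unadjusted p under 0.05 (14.8% and 14% of all). This was an HMR in the first exon of Pcdhb20, at 24.9% in P60 eYFP- and 37.5% in P60 eYFP+, a difference of 12.6 points (adjusted exact p = 0.0204).

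The starts were alike in one sequence feature that the choice of members did not use. The letters CGCT, which hold a CpG and are the core of the conserved promoter element of many of these genes, were looked for on both strands in the mm39 genome. They lay within 500 bp upstream of 57 of 59 starts (96.6%) against 70.4% of all protein-coding starts, and within 200 bp of 55 (93.2%) against 55.6%. Among other genes with 20 to under 40 CpGs the shares were 73.6% and 51.9%. The members with no match within 500 bp were Pcdhb22 and Pcdhga12. The windows had a median GC content of 44.9% against 55.1% over all genes. A match is a description of letters and shows neither the whole element nor a bound site.

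Genes related by family or by function were read in the same way, from lists chosen with earlier results known. Of 12 protocadherins outside the clusters, 11 were under 20% with a median of 1.07%, and none had the intermediate level of the alternates at P60. The exceptions by stage were Pcdh15, a hair cell protein, which fell in both subtypes from 25.4% and 24% to 5.22% and 4.86% (adjusted exact p = 1.21e-25 and 8.85e-27), and Pcdh12, a gene of endothelial cells, which was at 57.9, 60.5, 70.8 and 62.2% and rose in eYFP- by 12.9 points (adjusted exact p = 5.74e-04). Of 18 classical and related cadherins 15 were under 20% (median 2.23%) and 0 were called by stage, with Cdh5 at 70.3%, Cdh12 at 40.7% and Cdh15 at 43.3% over the pools. Of 19 genes for regulators of the clusters, among them CTCF, cohesin subunits, DNA methyltransferases and TET enzymes, 17 were under 20% (median 1.62%) and 0 were called by stage, with Tet1, a methylcytosine dioxygenase, at 91.4% and Wiz, a zinc finger protein, at 53.7%. Markers of other cells moved with stage too: Krt19, a duct marker, was at 22.8, 21.2, 56.7 and 52.5%, and the acinar enzymes Cela1 and Cpa1 were called higher at P60 in eYFP+. The endothelial, blood and Schwann cell lists were over 60%. The part of cell composition in the stage differences of the members was not tested.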

How the data were processed

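Tagmentation-based whole-genome bisulfite libraries were made from sorted β cells. The authors trimmed reads (Trim Galore 0.6.6 with cutadapt 1.16), mapped them to mm39 with abismal, used SAMtools 1.5 and called HMRs with MethPipe, whose version is not given in the sources used here. For each stage the authors deposited a table of methylated and unmethylated read counts at each CpG in the pool of each subtype, and HMR positions for each library and pool. The stage tables pool the libraries of a group, so levels carry no replicate error. The deposited tables of differentially methylated regions and the significance columns hold the authors' own comparisons. No value of them is given, but the number of their regions lower in each pool, set beside the study's text, served to read the pool codes B1 and B2 as eYFP- and eYFP+. The HMRs of the labelled libraries, a check that does not use those tables, gave the same reading.

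Levels were computed from these counts (Python 3.11.15, numpy 2.4.6, pandas 2.3.3, scipy 1.17.1) for windows of 500 bp on either side of the start in GENCODE M39, for first exons and for merged HMRs, with at least 3 CpGs and 30 reads in every pool. Member windows held 145 to 1723, 145 to 1597, 250 to 3702 and 321 to 3469 reads (P2 eYFP-, P2 eYFP+, P60 eYFP-, P60 eYFP+). Pools were compared with the two-sided Fisher exact test, and stage differences with each other by a Wald test on log odds with 0.5 added to each count. p-values were adjusted by the Benjamini-Hochberg method over all windows, exons or HMRs tested, and a call needed an adjusted p under 0.05 and 10 points. Reads of one molecule and neighbouring CpGs are not independent, so p-values are too small as a measure of biological spread. Counts over members have no p-value. The code was tested on simulated data.

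Members and lists were chosen with earlier results of these data known. Named members were the C-type genes, the lowest and highest starts of each class, the largest stage differences, subtype calls, and members with an HMR in all libraries of one stage but not of the other. Pcdha4, Pcdha4b, Pcdhb6, Pcdhb9 and Pcdhb20 were chosen after their values were seen. Same-numbered P60 libraries deviated together (correlations 0.150, 0.204, 0.309 and 0.140 over 84472 autosomal HMRs) and were taken as pairs. Differently numbered libraries of the same labelled sex gave 0.010 to 0.232 and those of the other sex -0.261 to -0.055, so a shared number and a shared sex label cannot be told apart in this check. The P2 numbers (0.014) were not taken as pairs.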

Additional observations from a re-analysis of the deposited data

Results flagged for a closer look

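5 of 50 groups of libraries checked held a library flagged for a large gap to the nearest other library, relative to the range of its group. A chance rate of about 1 in 20 holds for continuous values of unrelated measures. Small counts in which the other 3 libraries tie, such as 4 against 5, are flagged at any gap, and the measures overlap. The 5 of 50 therefore cannot be set against that rate. In P60 eYFP- replicate 3, HMRs overlapped 11 first exons of the alpha alternates, against 13 in the other 3 libraries. In P60 eYFP- replicate 2, HMRs covered 39.0% of the gamma A windows, above the 30.1 to 30.7% of the others. In P60 eYFP+ replicate 4, HMRs overlapped 4 C-type first exons, against 5 in the others. In P60 eYFP+ replicate 1, HMRs covered 30.5% of the windows of all alternates and 33.9% of those of all members, above 23.6 to 24.3% and 27.5 to 28.0% in the others.

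The stage difference of the Pcdha6 start in eYFP+ exceeded that in eYFP- by 12.5 points (adjusted p = 0.0114, Wald test on the binomial log odds of pooled reads), with opposite directions in the subtypes.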

How the results depend on the processing

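Alternatives marked as added were chosen after seeing the data. The class medians of start levels (alpha 27%, beta 37.5%, gamma 27.4%, C-type 1.07%) moved with the window. They were 24.3, 28.3 and 24.5% for alpha, beta and gamma within 250 bp, 33.5, 47.2, 43.2 and 5.06% (C-type last) within 1000 bp, and 48.5, 57.9, 55.8 and 38.9% over first exons. As means of single CpGs alpha was at 27.9% and gamma at 27%, from the start of the gene record gamma was at 28.3% and C-type at 1.74%, and without shared stretches (added) alpha, beta and gamma were at 31.1, 36 and 26.7%.

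Calls between stages depended on the size asked. In eYFP- 4 start windows were called, 17 at 5 points and 0 at 20 points. In eYFP+ the count was 2, and it was 13 at 5 points, 1 at 20 points, 5 within 250 bp, 1 within 1000 bp and 4 without shared stretches (added). Between subtypes 1 window (Pcdha8) was called at P2 within 250 bp and 2 at P60 at 5 points. The call for Pcdha6 (12.5 points between the stage differences) gave 0 with CpGs of at least 10 reads in all pools (9.82 points), at 20 points, and without shared stretches (6.49 points), and within 250 bp the 1 call was Pcdha8 and not Pcdha6 (all added). For first exons (2 calls in each subtype, added settings) the counts were 9 and 13 at 5 points and 0 and 0 at 20 points, and 1 between subtypes at P2 at 5 points. Pcdhb10 within 250 bp (-8.19 points) and Pcdhb17 within 1000 bp (-9.04 points) were not called.

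The mean number of members with an HMR was 7.25 lower at P60, and -7.93 to -6.42 on leaving out a library. The subtype difference at P60 was 2.5, and it changed sign to -0.75 for HMRs that cover at least 50% of the window and -0.25 for HMRs of at least 200 bp, with 1.33 to 4.5 on leaving out a library. With the replicate number as a block it was 2.5 at P60 and 2 at P2, which a block of complete pairs cannot change, so this says nothing about stability. On leaving out a library the P2 value was 0.5 to 3.5, alpha against beta 62.3 to 65.8 points, alpha against gamma 25 to 29.3, beta against gamma -38.5 to -35.1 and C-type against alternates 18.4 to 20.7. For HMRs that cover at least 50% of the window, these 4 contrasts of classes were 39.1, 15.1, -24 and 48.6 points, against 64, 27.3, -36.7 and 19.5. Under the settings tried, 134 other values of the main comparisons kept their direction or, for counts and levels, stayed within 1.5 times or the counting error, 68 values of single members stayed on their side of the threshold, 9 lost the call and 1 gained it. Depth limits single windows more at P2 than at P60, and stage cannot be told apart from library set.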
